A study of Homo sapiens with 36 samples.

Results

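The regions described here are open-chromatin regions that lie close together, away from gene ends, in BT549 cells treated with DMSO. BT549 is an established triple-negative breast cancer line, which lacks the oestrogen and progesterone receptors and HER2 amplification. Overlapping ATAC-seq peaks of the 16 libraries of the BRM014 experiment were merged into 189959 regions, of which 64999 held a peak in 4 of 4 DMSO libraries. Of these, 44436 lay on chromosomes 1 to 22 with a centre more than 1000 bp away from either end of any protein-coding or lncRNA gene. They occupied 16643 bins of 100 kb. A bin was called dense when it held at least 10 such regions, which gave 2032 members in 176 dense bins (1.06% of the bins and 4.57% of the distal regions). The other 42404 distal regions, in sparser bins, served for comparison. The DMSO libraries chose the members, so their share in DMSO is 100% by construction and no test against DMSO was made.

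ATAC-seq cuts open DNA with a transposase, and a peak marks a stretch cut more often than its surroundings. Enhancers are such open stretches, and clusters of them are known for their place near genes of cell identity and for high occupancy by transcription factors and coactivators. SWI/SNF complexes use the ATPase BRG1 or BRM to slide or evict nucleosomes, and in many cell types distal enhancers depend on them more than promoters do. BRM014 is an inhibitor of the ATPase activity of BRG1 and BRM. Dexamethasone (DEX) activates the glucocorticoid receptor, a transcription factor that binds enhancers and recruits such complexes.

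The study held 36 libraries of BT549 cells labelled wild type, in 10 groups and 3 experiments. In the BRM014 experiment, 4 libraries each came from cells given DMSO, 10 μM BRM014 (BRM014), 500 nM DEX with DMSO (DEX_DMSO) or both agents (DEX_BRM014), all for 4 h. In the ATPase knockdown, 4 libraries each had control siRNA (siCtl_only) or siRNA against BRG1 and BRM together (siBRG1_siBRM). In the GATA6 experiment, cells with control siRNA or with siRNA against GATA6 (for 72 h) received vehicle or DEX (500 nM) for 2 h, and each group had 3 libraries (siCtl_Veh, siCtl_DEX, siGATA6_Veh, siGATA6_DEX). Knockdown efficiency and the duration of the BRG1 and BRM knockdown were not given in the sources used here.

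The deposited lists held 88348 to 98220 peaks in DMSO and 41026 to 60995 in BRM014. DEX_DMSO lists held 94777 to 103956 and DEX_BRM014 lists 49906 to 64198. The siCtl_only lists held 81639 to 87609, the siBRG1_siBRM lists 37184 to 66607 and the 12 lists of the GATA6 experiment 114113 to 131423. Read depth behind each list is not known from the peak files. In DMSO, 5 of 5 mesenchymal markers (VIM, ZEB1, FN1, SPARC, CDH2) had a peak at a gene end in 4 of 4 libraries. Among other markers this held for FOXA1 (1 of 5 luminal genes), for PTPRC, CD14 and SPI1 (3 of 5 leukocyte genes), for KDR (1 of 5 endothelial genes) and for SNAP25 (1 of 5 neural genes). ESR1, PECAM1, CDH5, VWF, SOX10, GFAP, RBFOX3 and NEUROD1 had none in any DMSO library. A peak at a gene end is not a measure of expression.

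The members were only partly what the word enhancer would cover. The rule leaves out gene ends, but not starts of alternative transcripts inside a gene, nor genes of rRNA, tRNA or snRNA. On chromosomes with transcript starts in the RefSeq table, 84 of 1819 classed members (4.62%) had their centre within 1000 bp of a start, as had 4.38% of classed regions in sparser bins. Another 213 members were on a chromosome without starts in that table and were not classed. In addition, 10 dense bins with 162 members held at least 4 rRNA, tRNA or snRNA genes, or at least 5 mitochondrial pseudogenes. These are called structural RNA gene bins below. Reads from such near-identical gene copies cannot be assigned to a single copy with certainty. No histone mark was used here, so the members are called dense distal regions.

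To show what DNA the members at starts hold, 43 members overlapped a RefSeq promoter window (250 bases before to 50 after a start, GRCh38.p14) by at least 100 bp, in 34 genes. Of these, 32 held a peak in 8 of 8 inhibitor libraries (4 BRM014 and 4 DEX_BRM014). Their windows had a median of 21.5 CG dinucleotides (range 0 to 42). The 11 windows of members held by fewer inhibitor libraries had a median of 15 (range 1 to 34), and 14 was the median over the 35116 windows of the table. The median DMSO rank of the peaks was 85.3 for the 32 and 50.4 for the 11, and its part in these values was not tested. Of the members printed, RUNX1, NFIB and HDAC9 held a peak in 8 of 8 inhibitor and 4 of 4 siBRG1_siBRM libraries, while TNPO2 held one in 2 of 8 and 2 of 4. This TNPO2 member (12721985 to 12722325) covers only part of its printed window, and CG counts are of whole windows. Another member at a TNPO2 start (12722623 to 12723078, DMSO rank 75.5) held a peak in 4 of 4 BRM014, 4 of 4 DEX_BRM014 and 4 of 4 siBRG1_siBRM libraries. RUNX1 and NFIB encode transcription factors, HDAC9 a histone deacetylase and TNPO2 a nuclear import receptor. Capitals mark CG dinucleotides, 40 for RUNX1 (chr21:34888650-34888949, minus strand), 37 for NFIB (chr9:14322338-14322637, minus strand), 0 for HDAC9 (chr7:18509020-18509319, plus strand) and 34 for TNPO2 (chr19:12722210-12722509, minus strand).
RUNX1: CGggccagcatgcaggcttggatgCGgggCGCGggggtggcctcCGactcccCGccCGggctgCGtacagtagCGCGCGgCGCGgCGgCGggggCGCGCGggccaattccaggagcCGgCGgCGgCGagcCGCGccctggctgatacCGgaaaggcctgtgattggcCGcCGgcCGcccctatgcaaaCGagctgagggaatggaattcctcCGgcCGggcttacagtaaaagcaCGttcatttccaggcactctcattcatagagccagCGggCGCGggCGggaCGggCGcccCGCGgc
NFIB: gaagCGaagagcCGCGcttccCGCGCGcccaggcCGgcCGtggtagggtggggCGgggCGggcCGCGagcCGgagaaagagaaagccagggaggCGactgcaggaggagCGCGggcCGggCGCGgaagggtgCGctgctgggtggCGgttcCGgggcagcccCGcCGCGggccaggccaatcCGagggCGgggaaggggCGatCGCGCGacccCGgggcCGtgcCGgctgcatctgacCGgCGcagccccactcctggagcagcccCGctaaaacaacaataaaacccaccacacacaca
HDAC9: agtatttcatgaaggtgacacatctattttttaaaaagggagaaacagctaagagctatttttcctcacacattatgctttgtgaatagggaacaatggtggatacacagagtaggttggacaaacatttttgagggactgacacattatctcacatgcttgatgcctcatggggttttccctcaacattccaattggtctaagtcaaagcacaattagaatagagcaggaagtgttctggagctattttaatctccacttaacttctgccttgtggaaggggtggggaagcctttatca
TNPO2: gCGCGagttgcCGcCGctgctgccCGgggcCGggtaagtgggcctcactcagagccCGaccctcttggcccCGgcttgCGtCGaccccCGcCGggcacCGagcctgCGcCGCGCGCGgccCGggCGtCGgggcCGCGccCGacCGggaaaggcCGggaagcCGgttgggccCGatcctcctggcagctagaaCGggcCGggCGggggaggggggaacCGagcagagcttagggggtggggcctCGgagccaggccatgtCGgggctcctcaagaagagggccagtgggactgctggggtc
The mean DMSO rank, where 100 is the strongest peak of a library, was 77.8 for the RUNX1 member, 96.9 for NFIB, 93.02 for HDAC9 and 34.4 for TNPO2. These 4 were chosen after their values were seen.

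The motif TGANTCA, the site of AP-1 factors, was searched on both strands. It was found in 1 of the 32 windows held by 8 of 8 inhibitor libraries, in 3 of the other 11, and in 7.71% of the windows of the table. The motif GGAATG, the site of TEAD factors, read as CATTCC on the other strand, was found in 6 of 32 and 1 of 11, against 14.03% of the table. Of the 4 windows with a TGANTCA match, those of VAV3 and LOC105370777 are printed as the ones whose members were held by the fewest inhibitor libraries. The other two, of FAM83G and LOC124906302, belong to members held by 7 and 8 of 8. VAV3 encodes a guanine nucleotide exchange factor. The VAV3 member held a peak in 4 of 4 BRM014, 2 of 4 DEX_BRM014 and 1 of 4 siBRG1_siBRM libraries. The LOC105370777 member held one in 3 of 4, 0 of 4 and 3 of 4. Capitals mark the match in VAV3 (chr1:107688450-107688749, minus strand, 1 CG) and in LOC105370777 (chr15:38868334-38868633, minus strand, 2 CG).
VAV3: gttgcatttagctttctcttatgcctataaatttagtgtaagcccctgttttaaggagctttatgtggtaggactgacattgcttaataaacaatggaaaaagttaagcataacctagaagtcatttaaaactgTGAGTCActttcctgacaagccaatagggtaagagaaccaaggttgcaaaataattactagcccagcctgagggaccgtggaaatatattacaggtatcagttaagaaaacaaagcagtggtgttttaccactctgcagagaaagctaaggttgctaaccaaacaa
LOC105370777: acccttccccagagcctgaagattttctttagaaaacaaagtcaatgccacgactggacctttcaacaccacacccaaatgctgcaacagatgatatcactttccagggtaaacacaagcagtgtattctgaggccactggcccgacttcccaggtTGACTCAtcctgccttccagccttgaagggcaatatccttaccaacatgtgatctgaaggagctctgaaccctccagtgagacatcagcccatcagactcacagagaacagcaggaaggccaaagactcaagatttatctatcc
A match to these letters is a description of the DNA and says nothing of binding.

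With BRM014 alone, the members held a peak in 59.1%, 65.4%, 62.1% and 48.2% of cases in the 4 libraries. Regions of sparser bins held one in 54.3%, 61.2%, 60.4% and 43.7%. Members were higher in each of the 4 libraries, by 3.82 points on average, and library 4, with the fewest peaks, was lowest in both sets. A member was counted as lost when 0 of 4 BRM014 libraries held a peak in it. This was so for 545 of 2032 members (26.8%, 95% Wilson interval 24.9 to 28.8) and for 13209 of 42404 regions of sparser bins (31.2%). Over the 64999 regions held in DMSO, gene ends included, 24.5% were lost. These values are a description, since the rule fixed DMSO at 100%, and weighting sparser bins to the members' DMSO peak rank turned the difference to -0.453 points, or to -3.04 points with the structural RNA gene bins also left out. The share of members lost was 48.2% when a peak had to cover 50% of the region. The members themselves were not chosen anew for this, and no DMSO share under that setting is given.

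**Figure D1:**
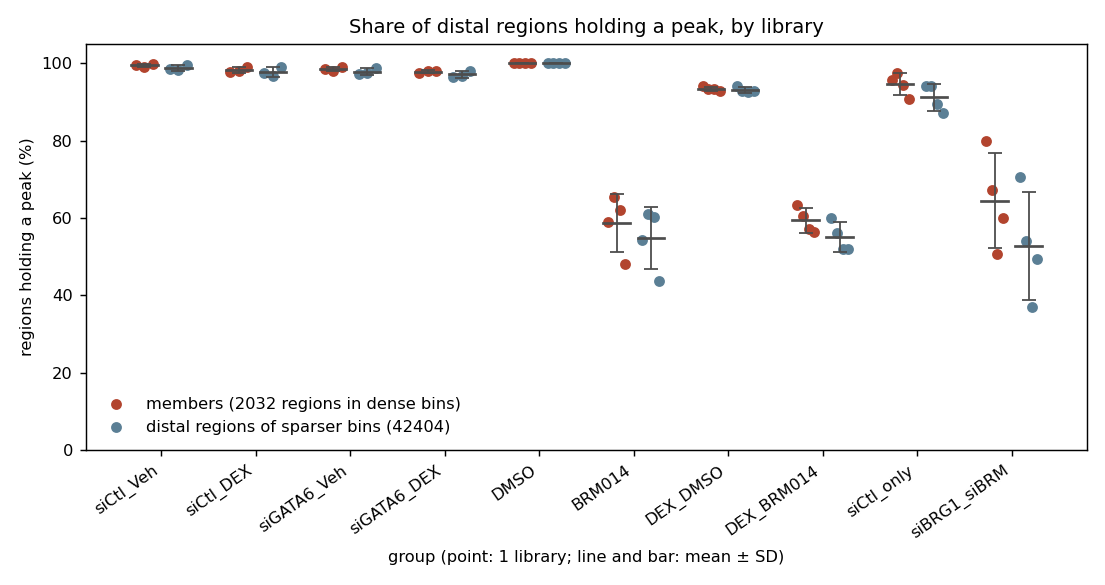
Percent of the 2032 members (red) and of the 42404 distal regions of sparser bins (blue) holding a peak, for each of the 36 libraries (points) by group, with mean and SD. DMSO is at 100% by the rule. Members average 58.7% in BRM014 and 64.5% in siBRG1_siBRM, and the 12 libraries of the GATA6 experiment lie between 97.4% and 99.9%.

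In the presence of DEX, the inhibitor lowered the share of members holding a peak from 93.4% ± 0.479 (SD, n = 4) to 59.4% ± 3.25 (SD, n = 4). The DEX_DMSO libraries stood at 94.1%, 93.3%, 93.3% and 92.96%, and the DEX_BRM014 libraries at 63.4%, 60.5%, 57.3% and 56.3%. The groups did not overlap, and the change was -34.0 points (two-sided exact permutation test, p = 0.0286, adjusted p = 0.0343 over 6 tests, 0.0286 being the smallest p that 4 against 4 allows). The change shrank to -9.10 points when each library was cut to its 41026 best peaks and was -43.1 points when a peak had to cover 50% of the region (adjusted p = 0.0571 for each, exact permutation tests). An adjusted p depends on all 6 tests together, so it can rise while a test's own p stays the same. The members fell less than regions of sparser bins, by 4.05 points (two-sided exact permutation test, p = 0.0286, adjusted p = 0.0343). In DEX_BRM014, members exceeded sparser bins by 3.47, 4.296, 5.32 and 4.38 points, and in DEX_DMSO by -0.125, 0.516, 0.806 and 0.0846 points. Of 1755 members held by 4 of 4 DMSO and 4 of 4 DEX_DMSO libraries, 399 (22.7%) were held by 0 of 4 DEX_BRM014 libraries, against 26.9% in sparser bins and 20.4% of the regions tested genome-wide. The difference between members and sparser bins changed with the structural RNA gene bins left out and with rank weighting added. It was 1.64 points without those bins and -0.689 points when sparser bins were also weighted to the members' DMSO rank. The part of these bins and of rank was not tested. Those bins were chosen after the values were seen, so no p-value is given for these differences. With all bins, the difference was 0.00507 points with equal peak numbers (adjusted p = 1.0) and 0.781 points with 50% coverage (adjusted p = 0.214), both by the exact permutation test. On the log odds scale it was 0.134 (adjusted p = 0.0825, exact permutation test).

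Knockdown of BRG1 and BRM lowered the share of members holding a peak from 94.7% ± 2.86 (SD, n = 4) to 64.5% ± 12.3 (SD, n = 4). The siCtl_only libraries stood at 95.8%, 97.6%, 94.4% and 90.8%, and the siBRG1_siBRM libraries at 79.9%, 67.1%, 50.7% and 60.1%. The groups did not overlap, although the knockdown libraries spread widely, with library 3 lowest in peaks and in share. The change was -30.2 points (two-sided exact permutation test, p = 0.0286, adjusted p = 0.0343). Leaving out any of the 4 siCtl_only libraries raised its adjusted p to 0.0686. With each library cut to its 37184 best peaks the change was -4.49 points (adjusted p = 0.0857), and with 50% coverage -35.5 points (adjusted p = 0.0571, both exact permutation tests). Members fell by fewer points than regions of sparser bins, by 8.23 points (two-sided exact permutation test, p = 0.0286, adjusted p = 0.0343). Members exceeded sparser bins by 9.14, 13.0, 13.7 and 10.8 points in the knockdown and by 1.79, 3.43, 4.95 and 3.64 points in siCtl_only. On the log odds scale, where the higher share of members in the control counts for more, the difference was -0.0731 (exact permutation test, adjusted p = 0.657). With equal peak numbers it was 4.2998 points and with 50% coverage 5.94 points (adjusted p = 0.0571 for each, exact permutation tests). It was 5.96 points without the structural RNA gene bins and 3.90 with rank weighting added. No p-value is given for these values, because those bins were chosen after the values were seen. Of 1753 members held by 4 of 4 DMSO and 4 of 4 siCtl_only libraries, 181 (10.3%, 95% Wilson interval 8.99 to 11.8) were held by 0 of 4 knockdown libraries. The value was 15.9% in sparser bins (interval 15.5 to 16.3) and 11.6% over all regions tested.

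At 4 h of DEX, 32 of 2032 members (1.57%) were held by 0 of 4 DEX_DMSO libraries, against 1.41% in sparser bins and 1.12% of all regions held in DMSO. The share of members was 29.5% with equal peak numbers, 5.95% with 50% coverage and up to 2.38% with 1 library left out (DMSO library 1). With equal peak numbers and with 50% coverage, the 2032 members stayed those chosen from the full DMSO lists. No DMSO share under these settings is given, so 29.5% and 5.95% do not measure loss with DEX alone. At 2 h, the share of members holding a peak was 98.1% ± 0.543 (SD, n = 6) with DEX and 99.01% ± 0.660 (SD, n = 6) with vehicle. The change was -0.951 points (two-sided exact permutation test within siRNA setting, p = 0.015, adjusted p = 0.0343). The pooled groups overlapped, from 97.4% to 99.02% with DEX and from 98.0% to 99.9% with vehicle. The difference of this change from sparser bins was -0.0628 points (exact permutation test, p = 0.865). A loss from 6 of 6 DEX libraries of a region held by 6 of 6 vehicle libraries was seen in 1 of 1965 members and in 7 of 40056 regions of sparser bins, with 0.0161% over all regions tested. The 2 h change kept its call under 8 of 12 alternatives. It lost it with a higher peak threshold (-0.607 points, adjusted p = 0.096), with at least 12 regions per bin (-0.767, adjusted p = 0.078) and with 50% coverage of the region (-0.820, adjusted p = 0.29), all by the exact permutation test. The call was also lost when replicate number was used as a block, but no call could be kept under that setting after adjustment, whatever the data.

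Regions that DEX opened were also counted in the dense bins. Among 993 regions there that no DMSO library held, 61 (6.14%) were held by 4 of 4 DEX_DMSO libraries, where 4.06% was the share over all such regions. These 61 lay in 45 of the 176 bins. The bin of GSE1 (chromosome 16, 85300001 to 85400000), which encodes a coiled-coil protein, held 6 of them beside its 10 members. The bins of PLEC (a cytoskeletal linker) and of BCAR3 (an adaptor of integrin signalling) held 2 each, as did 9 others of the 11 bins with that number, and come first among these by members and position. In the GSE1 bin, members were held in 100% of cases with DEX_DMSO, 72.5% over the 8 inhibitor libraries and 62.5% in siBRG1_siBRM.

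Bins were also compared by their number of distal regions, as a description with no test. In the knockdown each denser class had a higher mean, while in the inhibitor groups the classes below 15 regions lay within 3 points of each other. In siBRG1_siBRM, the share holding a peak was 50.7% ± 14.3 for bins with 1 region, 51.9% ± 13.97 for 2 to 4, 55.0% ± 13.9 for 5 to 9, 62.2% ± 12.8 for 10 to 14 and 81.6% ± 8.16 for 15 or more (SD, n = 4). In siCtl_only, the same classes gave 88.6%, 91.1%, 92.5%, 94.3% and 97.0%. In BRM014 they gave 54.8%, 55.3%, 54.3%, 56.4% and 75.8%, and in DEX_BRM014 55.5%, 55.2%, 54.5%, 57.2% and 75.5%. Median DMSO rank over the same classes was 53.8, 59.4, 62.1, 63.7 and 69.1, where 100 is the strongest peak of a library, and its part in these shares was not tested. Without the structural RNA gene bins, the class of 15 or more kept 10 bins with 159 regions and stood at 64.2% in BRM014, 65.3% in DEX_BRM014 and 72.2% in siBRG1_siBRM. At the edge of the rule, the 810 regions in bins of exactly 10 were held in 55.4% of cases in BRM014 and 60.2% in siBRG1_siBRM. The 1071 regions in bins of exactly 9, just outside, were held in 57.7% and 60.8%.

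**Figure D2:**
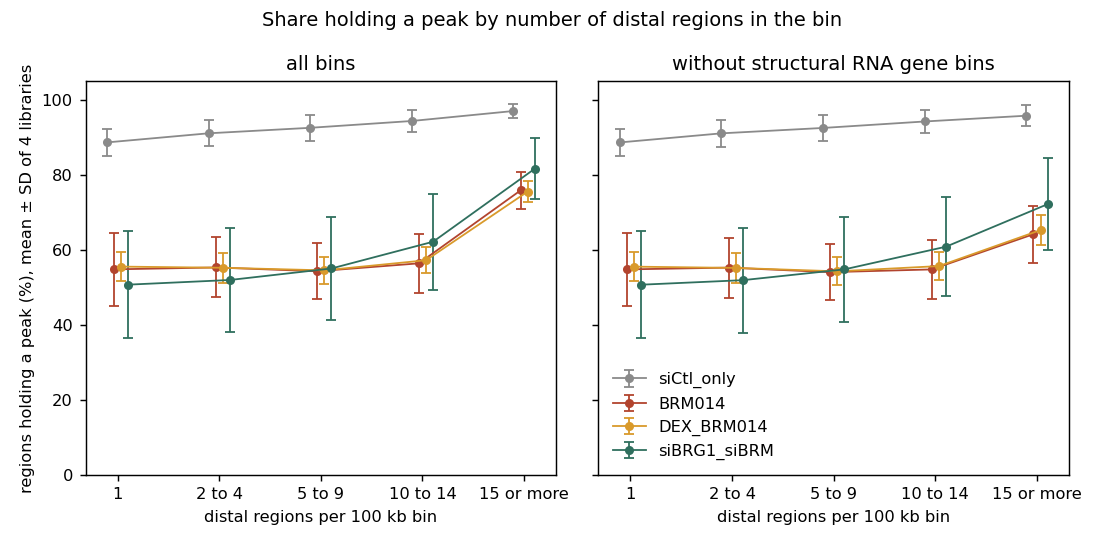
Percent of distal regions holding a peak (mean ± SD of 4 libraries) against the number of distal regions in the 100 kb bin, for all bins (left) and without bins of clustered rRNA, tRNA or snRNA genes or mitochondrial pseudogenes (right). On the left, both inhibitor groups stay between 54.3% and 57.2% up to 14 regions per bin. At 15 or more they stand at 75.8% and 75.5% on the left and at 64.2% and 65.3% on the right.

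Members in the structural RNA gene bins held a peak in most inhibitor and knockdown libraries. These bins were defined after the values were seen, so no p-value is given for sets with them singled out or left out. Their 162 members were held in 94.9% ± 2.78 of cases in BRM014, 93.1% ± 0.309 in DEX_BRM014 and 95.4% ± 2.39 in siBRG1_siBRM (SD, n = 4). The other 1870 members stood at 55.6%, 56.5% and 61.8% in these groups. The lowest library for the structural RNA gene bins was at 91.4% in BRM014 and 92.0% in siBRG1_siBRM. Without these bins, members exceeded sparser bins in BRM014 by 0.783 points.

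Of these 10 bins, 2 on chromosome 21 hold copies of the ribosomal RNA genes, which RNA polymerase I transcribes into the RNA core of the ribosome. The bin at 8200001 to 8300000 (25 members) includes RNA45SN2 and was held in 100% of cases in each of BRM014, DEX_BRM014 and siBRG1_siBRM. The bin at 8400001 to 8500000 (41 members, the most of any) includes RNA45SN1 and RNA45SN3 and was held in 97.6%, 94.5% and 100%. Its member of highest DMSO rank (8401393 to 8402027, rank 99.7) and that of lowest rank (8451253 to 8451919, rank 20.6) both held a peak in 8 of 8 inhibitor libraries. No member of that bin was held by 0 of 8.

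Clusters of tRNA genes, short genes of RNA polymerase III, account for 6 of the bins. One lies on chromosome 1 (161400001 to 161500000, 26 tRNA genes, 14 members, near FCGR2A). Another 4 lie on chromosome 6, at butyrophilin genes (2 bins), at PRSS16 and near ZNF184, with 11 to 14 tRNA genes each. The last is on chromosome 16 (3100001 to 3200000, 14 tRNA genes, 13 members, with ZNF205, ZNF213 and OR1F1). Over the 8 inhibitor libraries they were held in 87.5% to 95.2% of cases. The bin of NBR1 on chromosome 17 (43200001 to 43300000, 17 members) holds 12 snRNA genes, among them RNU2-1, a gene of the spliceosomal U2 RNA, and was held in 93.4% over the inhibitor libraries and 98.5% in the knockdown. The bin on chromosome 1 at 600001 to 700000 holds 7 mitochondrial pseudogenes and 10 members, held in 83.75% and 87.5%.

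Member by member, the same held near such genes. Within 500 bp of a tRNA gene lay 57 members, of which 46 (80.7%) were held by 8 of 8 inhibitor libraries and 0 by none of them. The median DMSO rank of these 57 was 59.2, below the 63.8 of members near no such gene. In sparser bins, 109 of 139 regions near a tRNA gene (78.4%) were held by 8 of 8. Near rRNA genes this was 31 of 34 members and 4 of 5 regions of sparser bins, and near snRNA genes 10 of 13 and 29 of 43. Near snoRNA genes it was 8 of 9 members but 5 of 12 regions of sparser bins. Of the 1919 members near no rRNA, tRNA, snRNA or snoRNA gene, 708 (36.9%) were held by 8 of 8, against 34.8% of the like regions in sparser bins.

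**Figure D3:**
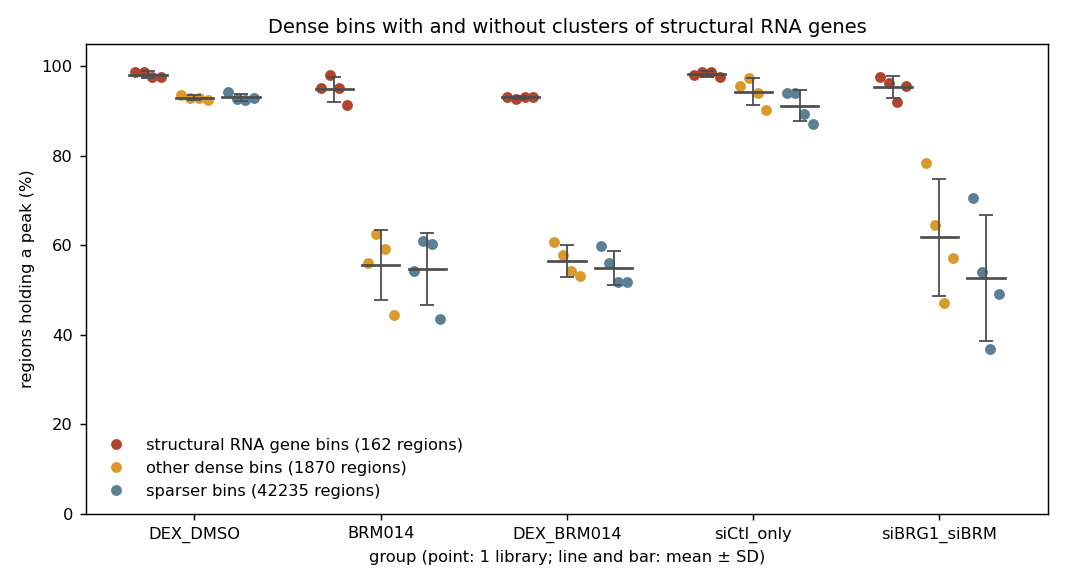
Percent of regions holding a peak in each library (points) with mean and SD, for the 162 members of structural RNA gene bins (red), the other 1870 members (orange) and 42235 regions of sparser bins (blue). In BRM014 and siBRG1_siBRM the red points lie above 91%, apart from the orange and blue ones, which lie at or below 78.3%.

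Members at transcript starts held a peak more often, by values given here without a test. The 84 members at starts were held in 79.5% ± 9.14 of cases in BRM014, 81.5% ± 4.401 in DEX_BRM014 and 83.6% ± 13.8 in siBRG1_siBRM (SD, n = 4). The 1735 classed members away from starts were held in 57.9% ± 7.47, 58.5% ± 3.29 and 64.1% ± 12.1. Of the 84, 52 (61.9%) were held by 8 of 8 inhibitor libraries and 2 by none. Of the 1735, 670 (38.6%) were held by 8 of 8 and 384 by none. Median DMSO rank was 66.3 at starts and 63.5 away from them. In sparser bins, regions at starts stood at 77.0% in BRM014, close to the members. Regions at gene ends in the dense bins, which the rule left out, were held in 74.3% ± 7.02 in BRM014, and the 18397 in other bins in 81.7% ± 5.42.

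Peaks strong in DMSO were held more often. Of 10 rank strata with equal numbers of distal regions, the highest held 291 members, which were held in 92.8% ± 3.20 of cases in BRM014 and 92.96% ± 5.79 in siBRG1_siBRM. In stratum 6, 197 members were held in 54.1% ± 10.7 and 63.7% ± 18.4 (SD, n = 4). Regions of sparser bins in the highest stratum stood at 93.2% in BRM014 and 88.7% in siBRG1_siBRM, and those in stratum 6 at 59.5% and 58.0%. Members had a higher median rank than regions of sparser bins (64.1 and 59.5) and were wider (median 276 and 249 bp). Neighbouring centres within a dense bin lay a median of 4530 bp apart, and 52.8% of members lay inside a protein-coding gene.

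Counted per member, 803 of 2032 (39.5%) held a peak in 8 of 8 inhibitor libraries and 441 (21.7%) in none, against 35.03% and 26.6% in sparser bins. In siBRG1_siBRM, 942 (46.4%) were held by 4 of 4 libraries and 323 (15.9%) by none, against 33.2% and 24.8%. Across both perturbations, 683 members (33.6%) were held by each of the 12 libraries and 234 (11.5%) by none, against 26.6% and 18.1% in sparser bins. A member lost from 8 of 8 inhibitor libraries but held by 4 of 4 knockdown libraries was seen 24 times (1.18%), and the reverse in 1 member (0.0492%). In sparser bins these shares were 0.382% and 0.132%. A core of 676 members (33.3%) held a peak in 36 of 36 libraries, against 26.4% of regions in sparser bins.

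Kept and lost regions lay within the same cluster in most bins. In 149 of 176 dense bins, at least 1 member was held by 8 of 8 inhibitor libraries and at least 1 other by none. Dense bins had a median of 11 members, and 39.5% of all members were held by 8 of 8 and 21.7% by none. Such mixed bins would therefore be frequent without any pattern, and this was not tested. In 1 bin every member was held by 8 of 8, and in 5 bins no member was. In 27 bins, at least 50% of the members were lost from 4 of 4 BRM014 libraries. The share held over the 8 inhibitor libraries had a median of 57.4% over bins and ran from 16.25% to 100%, and that in the knockdown a median of 65.5%, from 20.8% to 100%. Across the 176 bins the inhibitor and knockdown shares had a Pearson r of 0.816 and a Spearman rank correlation of 0.799, and 0.780 and 0.763 in the 166 bins without structural RNA gene clusters. This is across bins, which share the same 12 libraries and differ in peak rank, so it is a description.

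**Figure D4:**
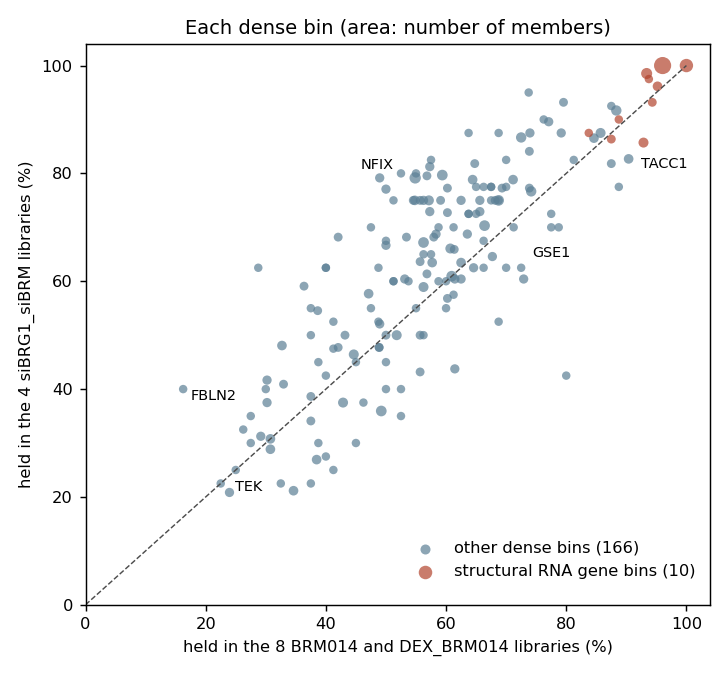
Each point is a dense bin, with area by its number of members. The x axis gives the percent of member and library pairs holding a peak over the 8 BRM014 and DEX_BRM014 libraries, the y axis the same over the 4 siBRG1_siBRM libraries, and the dashed line marks equal values. Structural RNA gene bins (red) lie at 83.75% or more on the x axis, and the FBLN2 bin is lowest on it at 16.25%.

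The bin of NFIX and LYL1 (chromosome 19, 13000001 to 13100000, 18 members) had the most members outside structural RNA gene clusters. NFIX is a transcription factor of the nuclear factor I family. Its members were held in 52.8% of cases in BRM014, 56.9% in DEX_BRM014 and 79.2% in siBRG1_siBRM, where siCtl_only stood at 97.2%. Of the 18, 6 held a peak in 8 of 8 inhibitor libraries and 4 in none, while 11 held one in 4 of 4 knockdown libraries and each held one in at least 1. Kept and lost members alternated along the bin. The member at 13056133 to 13056354 was held by 0 of 8 inhibitor and 4 of 4 knockdown libraries, while those at 13053834 to 13054194 and at 13060219 to 13060743 were held by 8 of 8 and 4 of 4. The member of highest DMSO rank (13093821 to 13094099, rank 84.5) was held by 8 of 8, and that of lowest rank (13082458 to 13082632, rank 21.9) by 3 of 8.

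**Figure D5:**
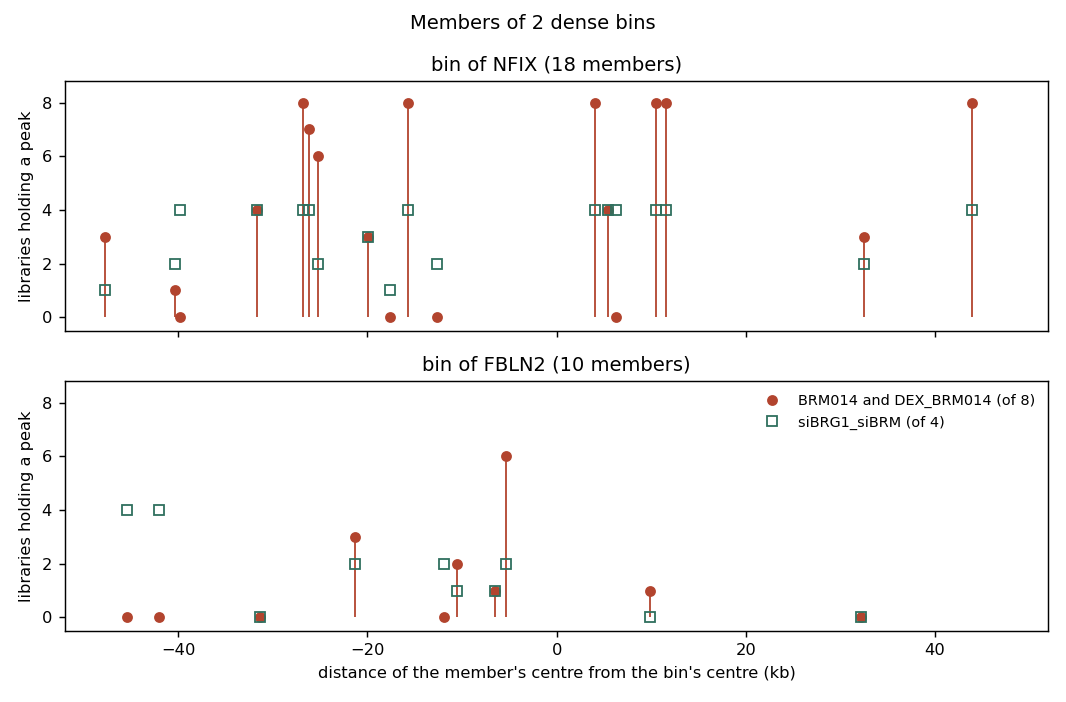
Number of libraries holding a peak in each member of the NFIX bin (18 members, top) and the FBLN2 bin (10 members, bottom), against the distance of its centre from the bin's centre in kb. Red circles count the 8 BRM014 and DEX_BRM014 libraries and green squares the 4 siBRG1_siBRM libraries. In the NFIX bin, 6 members stand at 8 and 4 at 0, and in the FBLN2 bin no member reaches 8.

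Other bins with many members ranged from 49.2% to 88.3% over the inhibitor libraries and from 35.9% to 91.7% in the knockdown. The bin near TEX44 on chromosome 2 (16 members) was held in 56.25% over the inhibitor libraries and 67.2% in the knockdown. The bin of TSPAN15, TACR2 and HK1 on chromosome 10 (16 members) was held in 49.2% and 35.9%. HK1 encodes a hexokinase, TACR2 a tachykinin receptor. The bin of SBNO2 and GPX4 on chromosome 19 (16 members) was held in 68.75% and 75%; GPX4 protects membranes from lipid peroxidation. The bin of ELL, SSBP4 and ISYNA1 (16 members) was held in 66.4% and 70.3%, and that of CARD10, LGALS2 and CDC42EP1 on chromosome 22 (16 members) in 60.9% and 60.9%. The bin of PLEC, PARP10 and GRINA (15 members), whose median DMSO rank was 86.0, was held in 88.3% and 91.7%. That of FRMD8 on chromosome 11 (15 members) was held in 74.2% and 76.7%.

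The bins that lost most with the inhibitor were chosen by that value and are given as a description. The bin of FBLN2 and HDAC11 (chromosome 3, 13500001 to 13600000, 10 members) was held in 12.5% of cases in BRM014, 20.0% in DEX_BRM014 and 40.0% in siBRG1_siBRM, with 100% in DEX_DMSO and 95% in siCtl_only. FBLN2 encodes the matrix protein fibulin-2. Its members had a median DMSO rank of 72.3, above that of members in general. The members at 13504392 to 13504878 (rank 85.1) and at 13507693 to 13508139 (rank 85.3) were held by 0 of 8 inhibitor and 4 of 4 knockdown libraries. The bin of TEK, the angiopoietin receptor, was held in 22.5% over the inhibitor libraries and 22.5% in the knockdown. Next came the bins near NT5E (24.0% and 20.8%), which encodes the ecto-nucleotidase CD73, and near SETBP1 (25.0% and 25.0%). They were followed by DCLK2 (26.25% and 32.5%), DGKD and USP40 (27.5% and 30.0%), TSPAN9 (27.5% and 35%) and TNS3 (28.75% and 62.5%), which encodes tensin-3 of focal adhesions. The NT5E bin was also low in the controls, at 72.9% in DEX_DMSO and 83.3% in siCtl_only. The TACC1 bin on chromosome 8 (13 members, median DMSO rank 83.4) had the highest inhibitor share outside structural RNA gene clusters, 90.4%, with 82.7% in the knockdown, where the highest such bin was at 95%. TACC1 encodes a protein of the mitotic spindle.

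Genes of chosen lists lay in few dense bins. Over all protein-coding genes on chromosomes 1 to 22, 1.58% of 19126 overlapped one. Of the YAP and TEAD pathway, which drives growth programmes from cell contacts and stiffness, 4 of 24 genes did, namely WWTR1 (the coactivator TAZ), CCN2, AMOTL2 and MYOF. The members in their bins were held in 66.1% of cases over the inhibitor libraries and 70% in the knockdown, where all members stood at 59.0% and 64.5%. The AMOTL2 bin was held in 74.0% and 87.5%, and the CCN2 bin, which encodes a secreted matrix protein, in 62.5% and 60.4%. WWTR1 stood at 70% and 62.5%, and MYOF at 58.0% and 68.2%.

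Of AP-1 factors, which bind enhancers as FOS and JUN dimers, 2 of 15 did. The FOSB bin (14 members, also with ERCC1 and a tRNA gene) was held in 85.7% and 87.5%, and the JUNB bin (11 members, also with HOOK2 and TNPO2) in 79.5% and 93.2%. No member of either bin was lost from 4 of 4 BRM014 libraries, which was so in 15 of the 176 dense bins. Of their members, 3 in the FOSB bin and 6 in the JUNB bin lay at transcript starts. Of mesenchymal and matrix genes, COL1A1, a fibrillar collagen, spanned 2 bins held in 76.25% and 58.75% over the inhibitor libraries.

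Of growth factor receptors and signalling genes, 4 of 28 did. The RUNX1 bin was held in 61.4% and 65.9%, the EPHA2 bin in 53.1% and 60.4%, and the IGF1R bin in 57.5% and 82.5%. NRG1, a ligand of ERBB receptors, spanned 2 bins held in 77.5% and 55.0% over the inhibitor libraries. A single gene was found for further lists, such as GRHL2 among 20 luminal genes (52.5% and 40.0%). ERRFI1 stood among 21 glucocorticoid receptor targets (62.5% and 63.5%), LIF among 20 NF-kB and cytokine genes (54.8% and 75%), and TOP2A among 21 cell cycle genes (51.8% and 50.0%). RPS14 was the gene of 25 ribosomal protein genes (66.25% and 77.5%), and TEK that of 5 endothelial markers. None of 27 SWI/SNF subunit genes, 5 leukocyte markers or 5 neural markers overlapped a dense bin. Longer genes reach more bins, so these counts do not compare the lists.

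The dense bins were spread unevenly. Chromosome 19 had 10 dense bins among 414 with a distal region (2.42%), chromosome 8 had 19 of 961 (1.98%), and chromosome 17 had 11 of 559 (1.97%). Chromosome 14 had 0 of 512 and chromosome 18 had 1 of 363. On chromosome 21, 89 members made up 13.6% of its distal regions, 66 of them in the 2 ribosomal RNA bins. Of the 176 bins, 10 lay next to another dense bin and 25 held no protein-coding gene. Copy number of these chromosomes in BT549 was not measured here.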

How the data were processed

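ATAC-seq peak lists of 36 BT549 libraries (10 groups) were used. Per the submitters' processing notes, the authors used bcl2fastq, SAMtools, MACS2 and HOMER with GRCh38 (hg38). The aligner and the peak thresholds were not given in the sources used here. The deposited lists give, per peak, a score, a fold enrichment (ratio), −log10 p and −log10 q and a summit offset, each called per library. These are the authors' own values and served here for ranks within a list. The smallest −log10 q was 1.30. Lists hold no read counts, so a library's value is the percent of regions with at least 1 bp of a peak, and its precision is set by the number of libraries.

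Peaks were merged and scored with Python 3.11.15 (numpy 2.4.6, pandas 2.3.3, scipy 1.17.1), and the code was tested on simulated data. Genes and starts came from RefSeq (GRCh38.p14), whose promoter table held no starts on chromosome 8. Rank is the percentile of a region's best peak by −log10 p, averaged over the 4 DMSO libraries. Libraries were compared by two-sided exact permutation tests with Benjamini-Hochberg adjustment over 6 tests and a threshold of 0.05. Nothing in the labels shows that libraries of a group came from separate cultures beyond their numbering as biological repeats, so p-values measure the spread between these libraries. Wilson intervals over regions cover counting error only. Named bins are the 12 with most members, the 8 lowest and 8 highest in the inhibitor libraries and the 3 with most DEX-gained regions (ties by members, then position), together with up to 4 genes per list, and in the 3 largest bins the members of highest and lowest rank. NFIX and FBLN2 members, structural RNA gene bins and printed sequences were singled out after their values were seen. The members and lists were chosen with earlier results of these data known. Alternatives varied the bins, distance, peak threshold, overlap, peak number, rank weighting, scale, replicates and pairing, and 3 were added after seeing the data. Some genes of the lists are not reported here.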

Additional observations from a re-analysis of the deposited data

How the results depend on the processing

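Each value below is in points or percent, with exact permutation p-values adjusted over 6 tests. Such an adjusted p can rise through the other tests while a test's own p stays the same. By the exact permutation test with an equal number of best peaks per library (41026 in the BRM014 experiment, 37184 in the knockdown), the change with inhibitor and DEX was -9.10 (adjusted p = 0.0571) and its difference from sparser bins 0.00507 (1.0). The knockdown gave -4.49 (0.0857) and 4.2998 (0.0571). BRM014 members held 49.7% and lost 39.0%, and DEX at 4 h gave 59.4% held, a difference of 4.86 and 29.5% lost. Here and with 50% of a region covered, the members stayed those chosen from the full DMSO lists. No DMSO share under these settings is given, so the shares held and lost do not measure loss with BRM014 or DEX alone. With 50% of a region covered, the 4 values were -43.1 (0.0571), 0.781 (0.214), -35.5 (0.0571) and 5.94 (0.0571). DEX at 2 h then gave -0.820 (0.29) and a difference of 0.503. BRM014 gave 38.0% held, -0.347 points and 48.2% lost, and DEX at 4 h 83.7% held and 5.95% lost. On the log odds scale the difference was 0.134 with the inhibitor (0.0825) and -0.0731 with the knockdown (0.657). Without structural RNA gene bins, the BRM014 difference was 0.783 with 29.0% lost, and the DEX 4 h difference -0.0830. With rank weighting added these were -3.04 and -1.33, and the inhibitor difference -0.689. With rank weighting alone, BRM014 gave -0.453 and DEX at 4 h -1.11. With at least 12 regions per bin, BRM014 gave 7.74 points and 23.3% lost, DEX at 4 h 94.4% held and 1.28 points, and DEX at 2 h -0.767 (0.078) and a difference of 0.127. With at least 8, that difference was 0.00456. With −log10 q of at least 5, DEX at 2 h gave -0.607 (0.096), BRM014 1.84 points and 30.1% lost, and DEX at 4 h 92.8% held and -0.294 points. Shifted bins gave 5.79 points for BRM014 and, for DEX at 4 h, 94.0% and 0.887. A distance of 5000 bp gave 6.95, 92.5% and -0.110. The cause of these moves was not tested. Leaving out each library gave -35.3 to -25.6 for the knockdown share (adjusted p 0.0343 to 0.0686), -0.266 to 0.103 for the DEX 2 h difference and 27.5% to 31.4% lost in BRM014. For DEX at 4 h it gave 91.6% to 93.6% held, 0.158 to 1.09 points and 1.87% to 2.38% lost. In the inhibitor and knockdown experiments no pairing of libraries by number was seen, though low correlations of peak calls cannot exclude one. Same-numbered deviations there correlated at -0.0101 to 0.0292, and those of other numbers at -0.0334 to 0.0355. In the GATA6 experiment same-numbered deviations correlated at 0.0231 to 0.113 and others at -0.0803 to 0.0263, so the numbers may pair libraries there. A replicate block left -34.0, 4.05, -30.2, 8.23 and -0.951 each with adjusted p = 0.15 by the exact test. There 4 pairs allow no p below 0.125 and the 6 pairs of DEX at 2 h none below 0.03125. With these limits no call could be kept after adjustment over 6 tests, so the block cannot decide on any of them. Called peaks limit these results, since a region below the caller's threshold counts as not held.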
